A study of Mus musculus with 9 samples.

Results

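The 9 genes described here encode parts of the machinery by which secretory granules and vesicles fuse with the plasma membrane when calcium rises: Snap25, Stx1a, Vamp2, Syt7, Syt13, Rab3a, Rab3b, Rab27a and Rims2. They were picked by name from the 23235 gene symbols of the deposited tables, and all 9 were among the 13306 genes tested. RNA sequencing had been done on whole pancreas of mouse embryos at day e15.5, on a mixed c57bl/6 and 129sv background. There were 3 libraries each of Blinc1-/- knockouts (labelled Blinc1-KO), Blinc1+/- heterozygotes (Blinc1-Het) and Blinc1+/+ wild types (WT). Blinc1 encodes a long noncoding RNA and neighbours Nkx2-2, whose product is a transcription factor of islet cells. Whether a group's libraries derive from different embryos or litters is not stated in the labels, and p-values here therefore describe the spread among these libraries alone.

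In regulated exocytosis a syntaxin and a SNAP-25 protein on the plasma membrane pair with a VAMP on the vesicle to form the SNARE complex, which drives fusion. Many synaptotagmins sense calcium, and Rab3 and Rab27, small GTPases on granules, recruit effectors such as RIM proteins that dock and prime the granule. In the pancreas this machinery releases hormones from islet cells, a related set of paralogues releases enzymes from acinar cells, and neurons that innervate the organ use many of the same genes.

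On mm9, the assembly of the deposited tables, the 9 genes are protein coding and on the plus strand: Snap25 at chr2:136539186-136608164, Stx1a at chr5:135499442-135526969, Vamp2 at chr11:68902030-68905883, Syt7 at chr19:10463580-10527671, Syt13 at chr2:92755258-92796208, Rab3a at chr8:73278578-73282585, Rab3b at chr4:108551675-108615929, Rab27a at chr9:72892672-72945399 and Rims2 at chr15:39029832-39515918. The 250 bases before a transcription start were taken from RefSeq (GRCm38.p6), where 4 of the 9 genes had an entry. Stx1a (chr5:135023232-135023481) and Rab3b (chr4:108878820-108879069) are shown, 5′ to 3′ on the plus strand, because their levels varied together across the libraries. Capitals mark GC boxes (GGGCGG on either strand), the binding motif of Sp1-type factors.
Stx1a: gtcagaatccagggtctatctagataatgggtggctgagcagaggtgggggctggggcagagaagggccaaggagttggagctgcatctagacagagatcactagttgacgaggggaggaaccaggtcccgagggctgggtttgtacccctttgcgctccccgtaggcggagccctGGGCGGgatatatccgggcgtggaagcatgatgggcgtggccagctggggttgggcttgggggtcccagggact
Rab3b: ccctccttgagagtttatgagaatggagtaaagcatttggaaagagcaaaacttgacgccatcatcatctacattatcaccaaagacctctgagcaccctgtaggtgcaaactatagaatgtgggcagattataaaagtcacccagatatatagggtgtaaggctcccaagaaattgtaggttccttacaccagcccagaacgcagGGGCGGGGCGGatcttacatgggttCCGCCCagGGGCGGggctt
Rab3b held 4 GC boxes that partly overlap and Stx1a held 1, where 32.7% of 32851 promoters of the same length held at least 1. The short CRE motif TGACG occurred once in each, against 17.8% of all promoters. Neither held the partial motifs CAGCACC or GGACAG of the RE1 element, which binds the neuronal repressor REST (5.73% and 18.7% of all promoters), or the NKX2-type motif TNAAGTG (10.1%). The E box CAGNTG, bound by factors such as Neurod1, had 1 match in Stx1a and 0 in Rab3b (44.8%). All motifs were searched on both strands, and a match is only a match of letters.

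Depth implied by the deposited confidence bounds was 19532984 to 25437255 fragments per library. Xist, which coats the inactive X, measured 35.0 to 40.3 FPKM in all 3 Blinc1-KO libraries, in Blinc1-Het replicate 3 and in WT replicate 3, and at 0.0608 FPKM or less in the other 4 libraries, so the knockout libraries were all female. The genotype labels were not checked on Blinc1 itself. The libraries labelled Blinc1-KO replicate 1 and Blinc1-Het replicate 1 stood apart from their groups. Nkx2-2 was at 24.9, 6.08 and 5.48 FPKM in Blinc1-KO, at 6.37, 19.0 and 13.4 in Blinc1-Het and at 15.2, 21.7 and 25.5 in WT. Results are therefore given with and without both libraries.

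The levels of the 9 genes, in FPKM, spanned a wide range. FPKM is scaled by transcript length, so the order of genes depends on the lengths used. Vamp2, the vesicle SNARE, was the highest at 42.3 FPKM on average over the 9 libraries (range 34.0 to 48.6), above 82.7% of tested genes. Syt13, a synaptotagmin expressed in endocrine progenitors and islet cells, followed at 22.2 (15.6 to 28.1). The GTPase genes Rab3a, at 16.2 (12.9 to 18.7), and Rab27a, at 15.7 (13.5 to 17.6), could not be ordered, since Rab3a was the higher in only 4 of 9 libraries. Next came the plasma membrane syntaxin gene Stx1a at 6.8 (4.19 to 8.97), the calcium sensor gene Syt7 at 4.8 (3.8 to 5.68) and Snap25 at 4.0 (1.78 to 8.02). The ranges of these 3 overlapped, with Stx1a above Syt7 in 7 of 9 libraries and Syt7 above Snap25 in 7 of 9. Rab3b, at 1.98 (0.913 to 4.88), and the RIM gene Rims2, at 0.915 (0.681 to 1.2), were the lowest, and Rims2 exceeded only 0.894% of tested genes. Tested genes all reached 1 FPKM in at least 3 libraries, so that share leaves out the genes below this level. Rims2 itself passed narrowly, through Blinc1-KO replicate 1 (1.16) and WT replicates 2 and 3 (1.08 and 1.2). Vamp2 did not overlap with Syt13, nor Rab27a with Stx1a. The order held in 9 of 9 libraries for Syt13 over Rab3a, Snap25 over Rab3b and Rab3b over Rims2, though their ranges overlapped. Implied fragments were fewest for Rab3b (59 to 313 per library), Rims2 (61 to 119) and Snap25 (71 to 318) and most for Vamp2 (1669 to 2468) and Syt13 (1150 to 2402).

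The genes also differed in their spread between libraries. Rab3b varied 5.35-fold between its highest and lowest library and Snap25 4.5-fold, against 1.31-fold for Rab27a, 1.43-fold for Vamp2 and 1.45-fold for Rab3a. Stx1a varied 2.14-fold, Syt13 1.8-fold, Rims2 1.77-fold and Syt7 1.5-fold. Both Rab3b and Snap25 had their lowest library in Blinc1-KO replicate 3 and their highest in Blinc1-Het replicate 1.

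**Figure D1:**
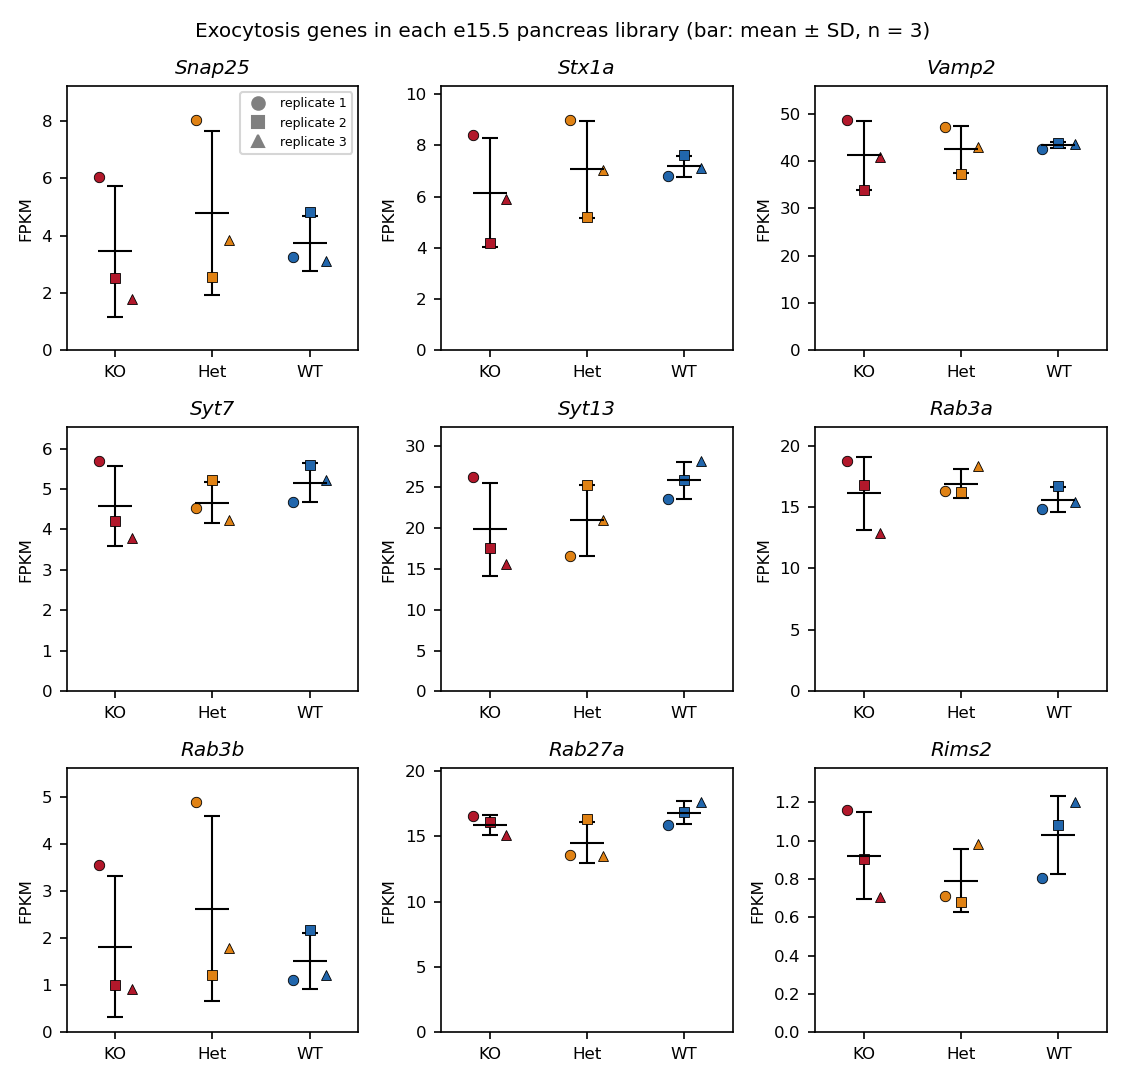
FPKM of the 9 genes in each library (points; symbols give the replicate number) with group mean ± SD (n = 3) for Blinc1-KO, Blinc1-Het and WT. In Snap25, Stx1a and Rab3b replicate 1 is the highest library of both mutant groups, whereas Syt13 is at 26.2 FPKM in Blinc1-KO replicate 1 and at 16.5 in Blinc1-Het replicate 1.

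The SNARE genes were measured first. Snap25, the plasma membrane SNARE of neurons and islet cells, was at 6.06, 2.53 and 1.78 FPKM in Blinc1-KO replicates 1, 2 and 3, at 8.02, 2.56 and 3.84 in Blinc1-Het and at 3.26, 4.84 and 3.11 in WT. The replicate 1 libraries of both mutant groups lay above all WT libraries, and the other knockouts lay below them. Stx1a was at 8.39, 4.19 and 5.89 FPKM in Blinc1-KO, at 8.97, 5.19 and 7.02 in Blinc1-Het and at 6.81, 7.64 and 7.1 in WT, with the same libraries at the top. Vamp2 was at 48.6, 34.0 and 40.9 FPKM in Blinc1-KO, at 47.2, 37.3 and 42.9 in Blinc1-Het and at 42.6, 43.8 and 43.6 in WT. The 3 WT libraries of Vamp2 lay close together (43.4 ± 0.644, SD, n = 3) and the Blinc1-KO libraries on both sides of them (41.2 ± 7.29).

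Of the synaptotagmins, Syt13 was at 26.2, 17.5 and 15.6 FPKM in Blinc1-KO, at 16.5, 25.2 and 21.0 in Blinc1-Het and at 23.5, 25.8 and 28.1 in WT. Here Blinc1-KO replicate 1 lay within the WT range, the other knockouts lay below it, and Blinc1-Het replicate 1 was the lowest heterozygote. Syt13 has lost residues that bind calcium in other synaptotagmins. Syt7, the high-affinity calcium sensor of insulin secretion, was at 5.68, 4.22 and 3.8 FPKM in Blinc1-KO, at 4.52, 5.22 and 4.23 in Blinc1-Het and at 4.67, 5.6 and 5.22 in WT. Blinc1-KO replicate 1 was again high and replicates 2 and 3 low for Syt7.

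For the granule GTPases the groups overlapped throughout. Rab3a was at 18.7, 16.8 and 12.9 FPKM in Blinc1-KO, at 16.3, 16.2 and 18.3 in Blinc1-Het and at 14.8, 16.7 and 15.4 in WT, without a common order by genotype. Rab3b, a paralogue of Rab3a, was at 3.55, 0.996 and 0.913 FPKM in Blinc1-KO, at 4.88, 1.21 and 1.8 in Blinc1-Het and at 1.11, 2.18 and 1.22 in WT. Its high libraries were those of Snap25. Rab27a, which tethers granules through synaptotagmin-like proteins, was at 16.6, 16.1 and 15.1 FPKM in Blinc1-KO, at 13.6, 16.3 and 13.5 in Blinc1-Het and at 15.9, 16.9 and 17.6 in WT. Heterozygote replicates 1 and 3 were its lowest libraries. Rims2, which encodes the RIM isoform of islet cells that binds Rab3, was at 1.16, 0.907 and 0.706 FPKM in Blinc1-KO, at 0.713, 0.681 and 0.981 in Blinc1-Het and at 0.806, 1.08 and 1.2 in WT.

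Knockout against wild type asks whether loss of Blinc1 changes these levels. Of the 9 genes 7 had lower and 2 higher fitted means in Blinc1-KO, and 0 passed. Of all 13306 tested genes 7785 were lower and 5521 higher. The largest fitted difference was that of Syt13, with 19.8 ± 5.65 FPKM in Blinc1-KO and 25.8 ± 2.29 in WT (SD, n = 3 each). Its difference was -0.40 on the log2(FPKM + 1) scale (SE 0.19, 95% interval -0.82 to 0.033), with a limma adjusted p of 0.58. Stx1a differed by -0.23 (SE 0.22, interval -0.72 to 0.25), Snap25 by -0.19 (SE 0.39, interval -1.07 to 0.69) and Syt7 by -0.16 (SE 0.13, interval -0.45 to 0.13). The intervals of Vamp2 (-0.36 to 0.19), Rab27a (-0.25 to 0.11), Rims2 (-0.39 to 0.23) and Rab3a (-0.24 to 0.30) were narrower than that of Rab3b (-0.86 to 1.005). By limma 0 of 13306 genes passed (0%). At an unadjusted p under 0.05 limma and voom each gave 0 of the 9 genes, where limma gave 5.79% of all genes lower and 2.6% higher and voom 822 lower and 343 higher. The median difference was -0.087 over the 9 genes and -0.026 over all tested genes. In 0 of the 9 genes did the groups not overlap, against 6.64% of all genes lower and 4.55% higher.

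Without both libraries that stood apart, all 9 genes had lower fitted means in Blinc1-KO than in WT and 0 passed. Several of the 9 genes varied together across the libraries, so they are not 9 separate observations. The share of all genes with a lower mean in that fit is not given here. The differences were then -0.61 for Syt13 (SE 0.11, limma adjusted p = 0.077), -0.58 for Snap25 (SE 0.20, limma adjusted p = 0.18), -0.45 for Stx1a (SE 0.15, limma adjusted p = 0.17), -0.30 for Syt7 (SE 0.11, limma adjusted p = 0.21) and -0.21 for Vamp2 (SE 0.091, limma adjusted p = 0.25). These 5 genes had an unadjusted p under 0.05, where 14.9% of all genes were lower and 4.82% higher. For 6 genes, these 5 and Rab3b, both remaining knockouts lay below all 3 WT libraries, against 27.5% of all genes lower and 12% higher. Rab27a was at -0.10 and Rims2 at -0.17. Rab3a and Rab3b, at 0.028 and 0.073 with all libraries, were at -0.081 and -0.33. The libraries left out were chosen after their values were seen. They stood apart by Nkx2-2, whose profile was the closest to that of Syt13 (r = 0.988). They were also the highest libraries for Snap25, Stx1a, Vamp2 and Rab3b. The choice therefore bears on these differences, and p-values without both libraries are no independent test.

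Heterozygotes showed no difference that passed against WT. Rab27a was lower by the smallest p of the 9, at 14.5 ± 1.57 FPKM in Blinc1-Het and 16.8 ± 0.881 in WT (SD, n = 3 each; difference -0.21, SE 0.080, limma adjusted p = 0.94). It was the only 1 of the 9 genes under an unadjusted p of 0.05, where 2.58% of all genes were lower and 1.35% higher, and 0 of 13306 genes passed by limma (0%). Snap25 (0.20, SE 0.39) and Rab3b (0.43, SE 0.41) had higher means in heterozygotes. Without both libraries that stood apart they were at -0.17 and 0.012, and 0 of the 9 genes had an unadjusted p under 0.05 (3.56% of all genes lower, 1.28% higher). In 0 of the 9 genes did the groups not overlap, against 7.05% of all genes lower and 3.54% higher, and without both libraries again in 0, against 13.8% and 6.19%. Knockouts against heterozygotes gave 0 of the 9 genes under an unadjusted p of 0.05, where 0.969% of all genes were lower and 1.26% higher, and again 0 genes passed by limma (0%). Their groups overlapped in all 9 genes, against 2.43% of all genes lower and 3.48% higher without overlap. Without both libraries 1 gene, Syt13 (-0.45, SE 0.12, limma adjusted p = 0.60), had an unadjusted p under 0.05, where 4.21% of all genes were lower and 2.27% higher. Snap25, Syt7, Syt13 and Rab3b were then lower in both knockouts than in both heterozygotes, 4 of 9 genes, against 20.3% of all genes lower and 16.1% higher. The comparisons share libraries and are not independent.

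**Figure D2:**
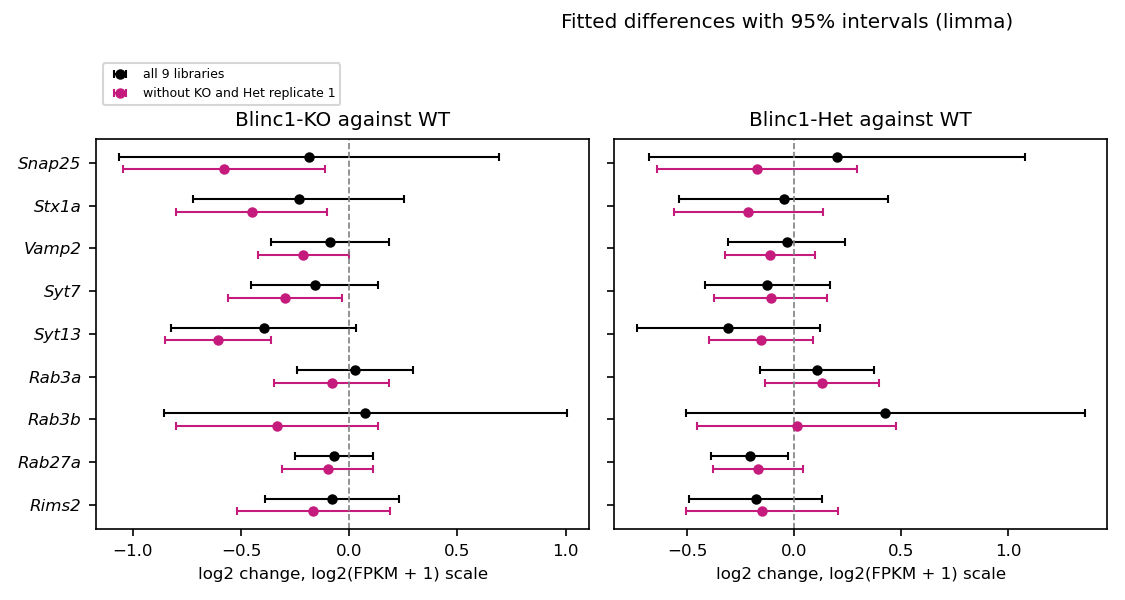
Fitted differences of the 9 genes (points, log2(FPKM + 1) scale) with 95% intervals for Blinc1-KO against WT on the left and Blinc1-Het against WT on the right, with all 9 libraries (black) and without replicate 1 of Blinc1-KO and Blinc1-Het (magenta). With all libraries each interval on the left spans 0; without both libraries Syt13 moves to -0.61 and Snap25 to -0.58.

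Across all 9 libraries, whatever the genotype, the genes fell into sets that varied separately. Snap25, Stx1a, Vamp2 and Rab3b varied together, with Pearson r between 0.744 and 0.983 for the pairs on log2(FPKM + 1). Syt7 and Syt13 formed a second set (r = 0.872), and between the sets r lay between -0.0123 and 0.447. The sets were drawn after these values were seen, so the values are a description over 9 libraries that share tissue composition and scaling.

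Markers of other cell types moved with these sets. Over 15 neuron markers, among them the adrenergic genes Th and Dbh, the summed level was 477, 140 and 157 FPKM in Blinc1-KO replicates 1, 2 and 3, 602, 139 and 313 in Blinc1-Het and 191, 280 and 185 in WT. Of these markers 12 of 15 had a higher mean in Blinc1-KO than in WT and 13 of 15 in Blinc1-Het, 0 of them past the test, where 5521 of 13306 tested genes were higher in Blinc1-KO. The sums of Blinc1-KO replicates 2 and 3 lay below those of all 3 WT libraries. Dbh, the enzyme that makes noradrenaline, was at 18.3, 0.0184 and 0.0926 FPKM in Blinc1-KO, at 26.3, 0.0387 and 9.32 in Blinc1-Het and at 1.05, 5.06 and 0.864 in WT. The libraries labelled Blinc1-KO replicate 1 and Blinc1-Het replicate 1 were the highest by both measures. The 9 glia markers summed to 59.1, 33.9 and 40.0 FPKM in Blinc1-KO, 56.9, 35.8 and 50.3 in Blinc1-Het and 54.2, 55.3 and 47.1 in WT, with the glial genes Gfap and Cdh19 under 1 FPKM throughout. The 20 endocrine markers, which include the hormone genes, Chga and Nkx2-2, summed to 5270, 3590 and 3260 FPKM in Blinc1-KO, 3410, 5250 and 4520 in Blinc1-Het and 4310, 5900 and 6060 in WT. The 14 acinar markers summed to 30200, 51000 and 40500 FPKM in Blinc1-KO, 36000, 41900 and 39000 in Blinc1-Het and 32500, 33300 and 35100 in WT. By their means in Blinc1-KO against WT, 17 of 20 endocrine, 7 of 7 tested glia, 9 of 9 mesenchyme and 8 of 8 endothelial markers were lower and 12 of 14 acinar markers higher, 0 of them past the test. In whole organs, fewer cells of a type and less RNA per cell cannot be told apart. The part of nerve or islet content in the genotype comparisons was not tested.

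Each gene was set beside the mean log2 level of the neuron, endocrine and acinar markers, which makes 27 relations over 9 libraries. With the neuron markers the relation was closest for Rab3b (Pearson r = 0.971, Spearman rho = 0.833) and Snap25 (r = 0.944, rho = 0.917), by an exact permutation test with adjusted p of 0.003 and 0.0025 for r and 0.032 and 0.018 for rho. Stx1a (r = 0.846, rho = 0.9) and Vamp2 (r = 0.815, rho = 0.883) followed, with exact permutation adjusted p of 0.018 and 0.026 for r and 0.018 and 0.021 for rho. The replicate 1 libraries of both mutant groups were the farthest from the median of the neuron markers. Without them r fell to 0.891 for Rab3b, 0.815 for Snap25, 0.747 for Stx1a and 0.678 for Vamp2. These lower values were not tested. As deviations from the genotype means, r was 0.968, 0.962, 0.935 and 0.89 in the same order. With the endocrine markers these 4 genes had r between 0.0388 and 0.264.

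Syt13 ranked the 9 libraries exactly as the endocrine markers did (r = 0.979, rho = 1.0), with exact permutation adjusted p of 7.4e-05 for r and 0.00015 for rho, the smallest value that permutations can give for rho here. Syt7 followed the same markers (r = 0.889, rho = 0.85; exact permutation adjusted p of 0.016 and 0.032). Without the 2 libraries farthest from the median, Blinc1-KO replicate 3 and WT replicate 3, r was 0.971 for Syt13 and 0.887 for Syt7, and as deviations from genotype means 0.973 and 0.864. Rab27a had r = 0.69 and rho = 0.833 with the endocrine markers, of which only rho passed (exact permutation adjusted p of 0.13 and 0.032), and without those 2 libraries r was 0.641. Rims2 (r = 0.65) and Rab3a (r = 0.364) did not pass with the endocrine markers, nor with the neuron markers (r = 0.208 and 0.545). With the acinar markers Stx1a (r = -0.856) and Vamp2 (r = -0.873) ran the opposite way (exact permutation adjusted p of 0.017 and 0.016). Their rho, -0.667 and -0.7, did not pass, and r was -0.386 and -0.406 without Blinc1-Het replicate 2 and Blinc1-KO replicate 2, so these relations rest on those libraries. As deviations from genotype means r was -0.894 and -0.925. In all, 8 of 27 relations passed by r and 7 by rho. The share of all genes that would pass is not given here. At r of 0.8 or more lay 4 of 9 genes with the neuron markers, 2 with the endocrine and 0 with the acinar markers. Of all tested genes outside these marker lists, 2.79%, 1.67% and 1.22% did. The permutations treat the 9 libraries as exchangeable, whatever their genotype.

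**Figure D3:**
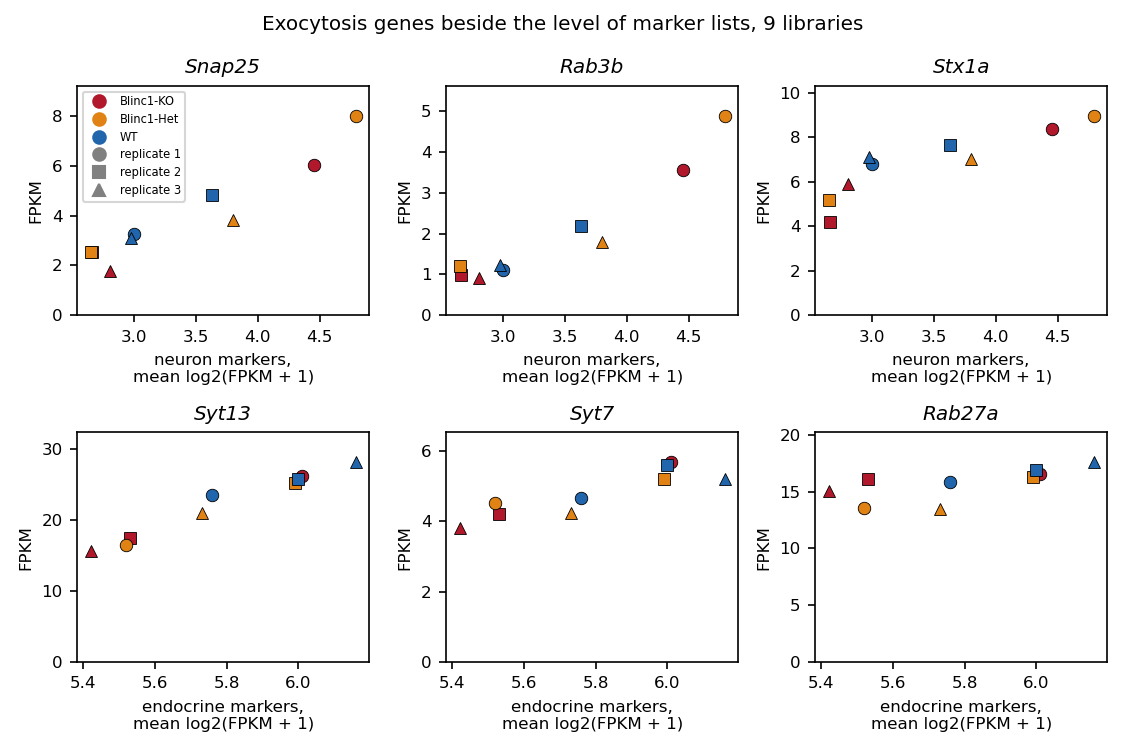
FPKM of 6 genes (vertical) against the mean log2(FPKM + 1) of the 15 neuron markers (top row) or the 20 endocrine markers (bottom row) in each library; colours give the genotype and symbols the replicate number. Snap25, Rab3b and Stx1a climb with the neuron markers, highest in the replicate 1 libraries of Blinc1-KO and Blinc1-Het, and Syt13 climbs with the endocrine markers from 15.6 to 28.1 FPKM.

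**Figure D4:**
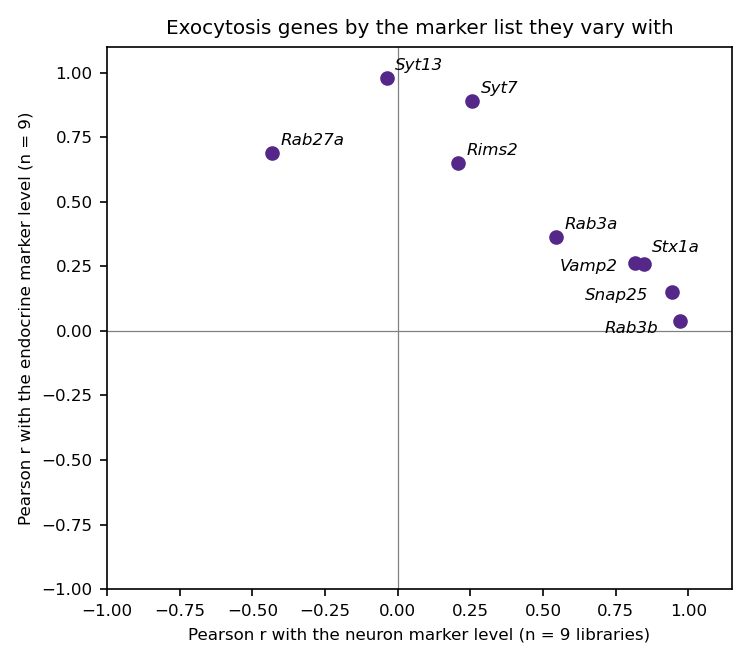
Pearson r of each gene with the neuron marker level (horizontal) and the endocrine marker level (vertical) over 9 libraries. Snap25, Stx1a, Vamp2 and Rab3b sit at the right with neuron r of 0.815 or more, and Syt13 and Syt7 at the top with endocrine r of 0.889 or more. Rab3a and Rims2 lie between them, and Rab27a lies at the left with neuron r of -0.431.

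The tested genes with the most similar profiles, the 2 with the highest Pearson r over the 9 libraries for each gene, differed between the sets. For Syt13 they were Nkx2-2 (r = 0.988, rho = 0.983) and the granule protein gene Chga (r = 0.979, rho = 0.917). For Rab3b they were the neuronal tubulin gene Tubb3 (r = 0.984, rho = 0.9) and the noradrenaline transporter gene Slc6a2 (r = 0.983, rho = 0.95). Snap25 was closest to the kinase gene Stk32b (r = 0.972, rho = 0.983) and to Slc18a1, a vesicular monoamine transporter (r = 0.969, rho = 0.95). Stx1a and Vamp2 were each other's nearest gene (r = 0.983, rho = 0.983), followed by Palm (r = 0.983, rho = 0.95) for Stx1a and the cadherin gene Cdh3 (r = 0.981, rho = 0.983) for Vamp2. For Syt7 the nearest were the glutaminase gene Gls2 (r = 0.965, rho = 0.967) and Smarca2 (r = 0.959, rho = 0.883), and for Rims2 the neuropeptide precursor gene Pnoc (r = 0.966, rho = 0.983) and Itpka (r = 0.957, rho = 0.967). Rab27a was nearest to the protocadherin gene Pcdh1 (r = 0.944, rho = 0.933) and Slc44a4 (r = 0.941, rho = 0.833), and Rab3a to the histone gene Hist1h2bm (r = 0.917, rho = 0.733) and Ndrg2 (r = 0.904, rho = 0.85). These are the extremes of all tested genes and carry no test. Some of them were low, below 1 FPKM in their lowest library. Hist1h2bm spanned 0.148 to 2.47 FPKM, Slc6a2 0.0 to 4.82 and Slc18a1 0.397 to 2.63. Stk32b spanned 0.426 to 1.54, Pnoc 0.567 to 1.47 and Slc44a4 0.913 to 1.74.

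Beside their paralogues, most of the 9 genes were minor members of their families by FPKM in this tissue. Snap25 made up 2.14% to 8.41% of the summed FPKM of its family, against 43.8% to 49.5% for Snap47 and 29% to 36.9% for the ubiquitous Snap23. Stx1a made up 7.38% to 13.3% of 5 plasma membrane syntaxins, where Stx4a held 51.4% to 56.7%. Vamp2 held 12.1% to 18.5% of 6 VAMP genes, below Vamp8, the VAMP of acinar zymogen granules, with 51.9% to 61.9%, and below Vamp3 with 21.8% to 25.6%. Implied fragments per library lay closer, at 1669 to 2468 for Vamp2, 1829 to 2711 for Vamp8 and 2410 to 3145 for Vamp3. The VAMP shares therefore depend on the transcript lengths used for scaling. Vamp7 was listed at 0 in every library and is not among those 6 genes. Whether it was absent or not counted under the annotation used was not tested.

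Among the Rab3 genes Rab3d, the isoform of zymogen granules, took 76.7% to 85.9%, Rab3a 13.0% to 18.0%, Rab3b 0.865% to 5.08% and Rab3c at most 1.18%. Rab27a, with 66.5% to 76.9%, exceeded Rab27b in FPKM. Implied fragments per library overlapped, at 781 to 1190 for Rab27a and 617 to 1421 for Rab27b. That share therefore also depends on the transcript lengths used for scaling. Rims2, with 7.24% to 16.9%, was far below Rims4, with 67.3% to 82.4%. Their implied fragments were similar, at 61 to 119 per library for Rims2 and 61 to 126 for Rims4. The gap between these shares therefore lies in the transcript lengths used for scaling, and rests on few fragments. Syt13 was the reverse case, with 30.9% to 55.0% of 17 synaptotagmin genes, followed by Syt11 (5.93% to 16.7%) and Syt7 (8.43% to 11.7%).

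**Figure D5:**
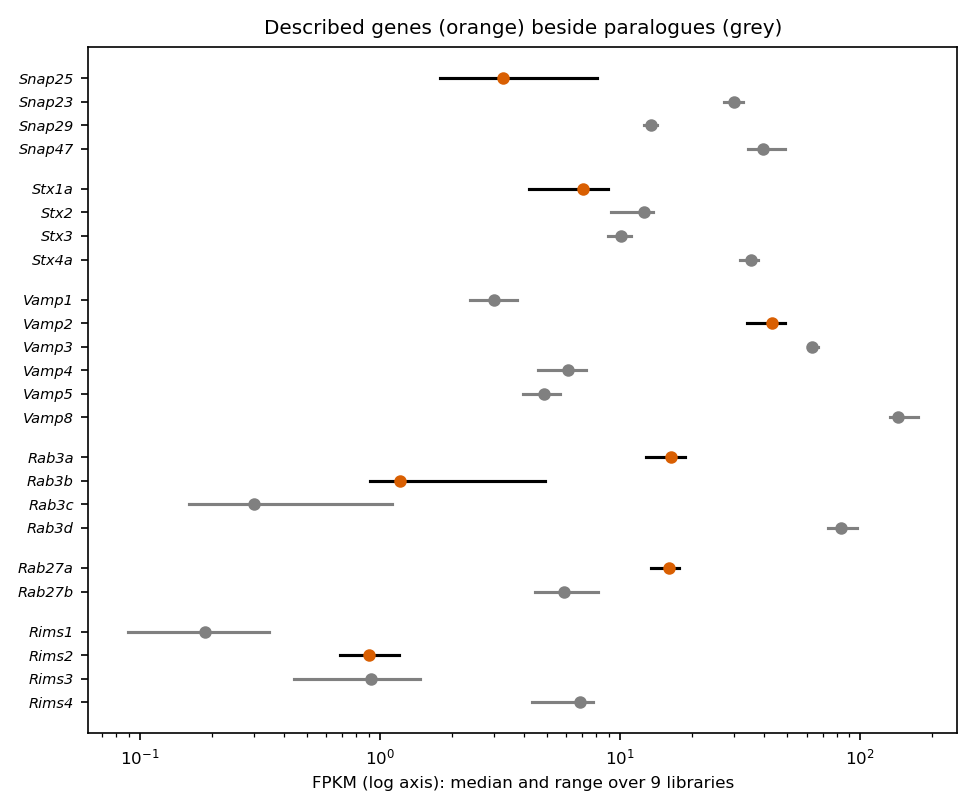
Median (point) and range (line) of FPKM over the 9 libraries, on a log axis, for the described genes (orange) and paralogues of theirs (grey) in 6 families, synaptotagmins not drawn. Rab3d at 83.5 FPKM and Vamp8 at 144 FPKM (medians) lie above Rab3a and Vamp2, and Snap25 and Rab3b have the longest lines of the described genes.

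The wider machinery was read from lists of 89 other exocytosis genes, of which 66 were tested. In Blinc1-KO against WT 28 of 66 were higher, 38 lower and 0 passed by limma. Below an unadjusted 0.05 lay 1 gene by limma and 2 by voom, all lower, where 5.79% of all tested genes were lower by limma and 822 of 13306 by voom. The median difference was -0.019, against -0.026 over all tested genes, of which 5521 were higher and 7785 lower. The SNARE list had 5 of 14 higher, with Vamp8 (difference 0.17, SE 0.085), Stx19 (0.33, SE 0.17) and Vamp3 (-0.080, SE 0.043) at the smallest p. Among SNARE helpers 8 of 14 were higher; Cplx2, a complexin that clamps the SNARE complex, was at 14.6, 9.9 and 10.3 FPKM in Blinc1-KO and at 13.1, 15 and 16.5 in WT (-0.35, SE 0.15), and Stxbp4 (-0.21, SE 0.096) and Snapin (-0.14, SE 0.076) came next. The list named calcium sensors holds synaptotagmins and Doc2 genes by family, not by calcium binding. It had 6 of 11 higher, led by Syt5 (0.36, SE 0.17), Syt15 (-0.37, SE 0.22) and Syt17 (0.27, SE 0.28). Priming and active zone genes had 4 of 10 higher, led by Rimbp2 (-0.27, SE 0.14), Baiap3 (-0.24, SE 0.16) and Unc13b (0.11, SE 0.070). Of the Rab3 and Rab27 system 5 of 17 were higher, led by Rab3ip (0.15, SE 0.0725), the granuphilin gene Sytl4 (-0.33, SE 0.17) and Rab3il1 (-0.30, SE 0.17). The limma adjusted p of these 15 genes lay between 0.58 and 0.74. In Blinc1-Het against WT 34 of 66 were higher, 32 lower and 0 passed, with 1 higher and 3 lower under an unadjusted p of 0.05 by limma and by voom. Of all 13306 tested genes 5712 were higher and 7594 lower. Below that p lay 179 higher and 343 lower by limma, and 154 higher and 351 lower by voom.

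The wider lists were also set beside the marker levels. Of the 66 genes 10 had r of at least 0.8 with the neuron markers, which is 15.2% against 2.79% of all tested genes outside the marker lists, and 4 had it with the endocrine markers, 6.06% against 1.67%. By list, the neuron markers gave 5 of 11 calcium sensors, 4 of 14 SNARE helpers, 1 of 17 genes of the Rab3 and Rab27 system, 0 of 14 SNARE genes and 0 of 10 priming and active zone genes. The endocrine markers gave 2 of 17 genes of the Rab3 and Rab27 system, 1 of 14 SNARE helpers, 1 of 10 priming and active zone genes, 0 of 14 SNARE genes and 0 of 11 calcium sensors. Of the synaptotagmins near the neuron markers, Syt4 (r = 0.991) was at 4.0, 0.394 and 0.457 FPKM in Blinc1-KO, at 4.25, 0.579 and 1.96 in Blinc1-Het and at 0.749, 1.47 and 0.771 in WT. Syt1, the calcium sensor of synaptic vesicles (r = 0.974), was at 3.86, 0.753 and 0.969 FPKM in Blinc1-KO, at 4.48, 0.527 and 1.78 in Blinc1-Het and at 1.09, 2.54 and 1.24 in WT. Cplx1 (r = 0.978), Syt11 (0.941), Doc2b (0.92), Syt9 (0.912), Sept5 (0.892) and Napb (0.883) were also among the 10. With the endocrine markers the 4 genes were Cplx2 (r = 0.947), Sytl4 (0.88), Baiap3 (0.85) and Rab3gap2 (0.816). With the acinar markers 1 of 66 genes reached 0.8, or 1.52%, close to the 1.22% of all tested genes. It was Rab3d (r = 0.857), at 80.7, 97.2 and 85.3 FPKM in Blinc1-KO, 73.7, 89.6 and 83.5 in Blinc1-Het and 77.0, 78.8 and 87.0 in WT. These counts are descriptive, and the genes in them were named after their values were seen.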

How the data were processed

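Values deposited by the authors are FPKM (fragments scaled by transcript length and by mapped fragments), each with confidence bounds and a status, per the file headers. Per the labels, TopHat (version 2.0.4) aligned the reads to mm9 with 4 mismatches and up to 10 multiple hits. The submitters' processing notes also name Cufflinks, DESeq and CASAVA 1.8.2. Annotation and strand use: not given in the sources used here. Values of loci sharing a symbol were summed, and 4 symbols with estimates failed for excess data, all exocrine enzyme genes, were left out. The 9 genes described had status OK in every library. An implied number of fragments was derived by taking the upper bound as 2 standard errors above the FPKM; of genes under 500 such fragments, between 73.83% and 74.74% in each library were whole numbers to a tolerance of 0.05.

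Tests used limma 3.58.1 in R 4.3.3 on log2(FPKM + 1), with an intensity trend, genotype as the only term and all 9 libraries in 1 fit, for the 13306 genes at 1 FPKM or more in at least 3 libraries. Tests were two-sided, with Benjamini-Hochberg adjustment over all tested genes and a threshold of 0.05. The scale understates changes of low genes, and with 3 libraries a group, no exact permutation p can be smaller than 0.1. The fit was tested on simulated data. FPKM is a share of a library, so it carries no absolute amount of RNA. Genotype and embryo sex are partly confounded. Alternatives were another pseudocount, no filter, median-ratio rescaling, a replicate block, fits of only the groups compared, sex as a covariate, array weights, voom on implied fragments, and libraries left out. The genes, lists and marker lists were chosen with earlier results of these data known. Named genes are the 9, tested paralogues, the 3 of each wider list with the smallest p in knockout against wild type and the 2 nearest profiles; others are said to be chosen after their values were seen. Some genes of the wider lists are counted but not reported here by name. Correlations used exact permutation over 9 libraries, adjusted over 27 relations.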

Additional observations from a re-analysis of the deposited data

How the results depend on the processing

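None of the 9 genes passed limma's threshold in any of the 3 comparisons under any of the 18 alternatives; the smallest adjusted p was 0.065, for Syt13 in Blinc1-KO against WT with array weights. The wider exocytosis lists also gave 0 calls under each alternative. Of 486 fitted differences 454 kept their sign and 32, none of them called, changed it. With sex as a covariate Rab3a was at -0.016 (Blinc1-KO against WT) and, in Blinc1-KO against Blinc1-Het, Syt7 at 0.013 and Rims2 at -0.036. The same covariate, with all knockouts female, left Snap25 at -0.018, Rims2 at -0.22 and Rab3b at 0.27 in Blinc1-KO against WT, against -0.19, -0.080 and 0.073 without it. With array weights Rab3a was at -0.19 and Rab3b at -0.25 (Blinc1-KO against WT) and Rims2 at -0.052 (Blinc1-KO against Blinc1-Het). Without both libraries labelled Blinc1-KO replicate 1 and Blinc1-Het replicate 1, Rab3a was at -0.081 and Rab3b at -0.33 (Blinc1-KO against WT), Snap25 at -0.17 (Blinc1-Het against WT) and Rims2 at -0.017 (Blinc1-KO against Blinc1-Het).

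Leaving out each library in turn moved Blinc1-KO against WT between -0.58 and 0.095 for Snap25, -0.21 and 0.040 for Vamp2, -0.081 and 0.17 for Rab3a, -0.33 and 0.29 for Rab3b, and -0.17 and 0.0036 for Rims2, and without a change of sign between -0.45 and -0.024 for Stx1a, -0.30 and -0.059 for Syt7 and -0.61 and -0.25 for Syt13. In Blinc1-Het against WT the ranges were -0.17 to 0.50 for Snap25, -0.21 to 0.13 for Stx1a and -0.11 to 0.053 for Vamp2. In Blinc1-KO against Blinc1-Het they were -0.40 to 0.024 for Stx1a, -0.18 to 0.075 for Vamp2, -0.17 to 0.066 for Syt7, -0.30 to 0.056 for Syt13 (-0.45 without both), -0.19 to 0.063 for Rab3a, -0.76 to 0.061 for Rab3b and 0.013 to 0.18 for Rims2. The low ends of Blinc1-KO against WT came without Blinc1-KO replicate 1, except for Rab27a. That gene lay between -0.11 (without WT replicate 1) and -0.035.

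Over all genes, where the fit as described called 0, limma called 1 (fit of only the groups compared), 5 (array weights) and 4 (without both libraries) in Blinc1-KO against WT, and 0 to 1 with each library left out. In Blinc1-Het against WT it called 1 with the replicate block, 6 with only the groups compared, 5 without both libraries and 0 to 7 with each left out (7 without Blinc1-KO replicate 1), and in Blinc1-KO against Blinc1-Het 5 without both libraries and 0 to 4 with each left out (4 without Blinc1-KO replicate 1). The cause was not tested. Same-numbered libraries correlated between -0.19 and 0.29 in their deviations from group means, and differently numbered ones between -0.34 and 0.28. The numbers thus showed no clear pairing, though so few libraries cannot exclude one. With the replicate block 0 of the 9 genes passed. Depth limits Rab3b and Rims2 most, with 59 and 61 implied fragments in the shallowest library.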
